A study of Mus musculus with 24 samples.

Results

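Liver RNA-seq libraries LKO 1 to 3 were compared with Ctrl 1 to 3, each called a liver below, across 10956 of the 24532 genes of the deposited table, which were the genes at 1 FPKM or more in at least 3 of the 6 liver libraries (FPKM is a level corrected for transcript length and library depth). The genes described are those of 40 process lists and 12 cell type lists, and 20 genes in each direction with the largest changes after setting aside genes already well described in these livers. Setting those aside left out 8 rises (*Nupr1*, *Fgf21*, *Atf3*, *Pdk4*, *Phgdh*, *Cyp2b10*, *Psat1* and *Cyp2b9*) and 2 falls (*Mup7* and *Hsd3b5*) that were as large. These 6 libraries are part of a study of 24 RNA-seq libraries from 4 tissues, the others being inguinal white adipose tissue (iWAT), gastrocnemius muscle and hypothalamus. Ctrl mice were *Crif1* flox/flox without Cre, and LKO mice carried the same floxed alleles with Alb-Cre. All were C57BL/6, fed chow and 8 weeks old, and the sex was not given in the labels.

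CRIF1 is a mitochondrial protein that works with the mitochondrial ribosome, where subunits of the respiratory chain are made and inserted into the inner membrane. The albumin promoter drives Cre in hepatocytes, and whether all other cells of the liver keep the gene was not tested here. Hepatocytes fill most of the liver and export albumin, carrier proteins and protease inhibitors, and they also hold the cytochromes P450, esterases and transporters that handle bile acids, steroids and drugs. Kupffer cells, stellate cells, endothelial cells and cholangiocytes make up the rest of the tissue.

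*Gadd45gip1*, the gene of CRIF1 (chr8:84832282-84835482, mm10), stood at 14.6, 12.5 and 13.6 FPKM in Ctrl livers and at 5.4, 2.0 and 2.51 FPKM in LKO livers. All 3 LKO values were below all Ctrl values, and LKO 1 kept the most of the transcript. *Alb*, which marks hepatocytes, was the most abundant of the marker genes in every library, with 39763 to 42770 FPKM in Ctrl and 33127 to 53194 FPKM in LKO livers, and it was not called (log2 fold change -0.31 ± 0.43 SE after scaling, 0.05 on the deposited FPKM, adjusted p = 0.886). *Nupr1*, a stress-induced nuclear protein, was at 0.661 to 1.88 FPKM in Ctrl and at 59.3, 311 and 909 FPKM in LKO livers. Between LKO 1 and LKO 3, *Nupr1* therefore differed more than the Ctrl libraries did among themselves, and *Gadd45gip1* and *Nupr1* both put LKO 1 nearest to Ctrl.

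Of the genes tested, 1126 (10.3%) were higher and 382 (3.49%) lower in the livers of LKO mice, 1508 in all (13.8%). A gene was called when limma gave a fold change of at least 1.5 and a Benjamini-Hochberg adjusted p under 0.05, in the same direction, both on the deposited FPKM and after the libraries had been scaled to the median ratio of their genes; the fold change given below is that of the scaled values on log2(FPKM + 1), which understates the change of genes near or below 1 FPKM, and the adjusted p is the larger of both fits. Both scales were used because they placed the median log2 fold change over all genes at 0.33 (deposited) and 0.02 (scaled). Higher genes made up 74.7% of the calls on both scales, 87.2% on the deposited scale alone (2622 higher, 384 lower) and 59.5% on the scaled values alone (1126 higher, 766 lower), and no gene was called in opposite directions. The median log2 fold change of called genes was 0.89 for higher and -1.23 for lower genes after scaling, and 1.17 and -0.92 on the deposited scale, so which direction had the larger changes turned with the scale. There was no overlap between LKO and Ctrl values for 6697 genes (61.1%). Of the genes tested, 504 passed the filter only through the LKO libraries, being under 1 FPKM in all 3 Ctrl libraries, and 31 only through Ctrl. Such genes had to differ, and 301 of the 1126 higher and 18 of the 382 lower genes were among them; over the other 10421 genes 7.92% were higher and 3.49% lower. In each list below at most 2 of the higher genes passed through the LKO libraries only, except where a larger number is given. The labels do not say that the 3 libraries of a group came from separate mice, although the study's design counts 3 per group, so p-values measure the spread between these libraries.

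Lower calls in the LKO livers were a larger share of abundant genes. Among 4009 genes with a mean under 5 FPKM, 14.3% were higher and 1.95% lower, and without those that passed the filter through 1 group only these were 8.36% and 1.75% of 3494 genes. Of 62 genes at 1000 FPKM or more, 3 were higher and 24 (38.7%) lower. The 24 included near-identical *Mup* copies that share reads, such as *Mup3*, *Mup7*, *Mup17* and *Mup20*, so they are not independent of each other. The 3 were the ferritin subunits *Ftl1* and *Fth1*, which store iron, and *Cyp3a11*, a cytochrome P450 of drug metabolism (1742, 1429 and 1296 against 3296, 3110 and 2843 FPKM; not called without Ctrl 1, Ctrl 2, Ctrl 3, LKO 1 or LKO 2). The 10 most abundant genes held 23%, 24.3% and 24.5% of all FPKM in Ctrl 1 to 3 and 22.5%, 19.9% and 17.5% in LKO 1 to 3, and the number of genes at 1 FPKM or more was 10241 to 10293 in Ctrl and 11003 to 11487 in LKO livers. The LKO transcript pool was thus spread over more genes in each of the 3 livers, and the shift was smallest in LKO 1.

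**Figure D1:**
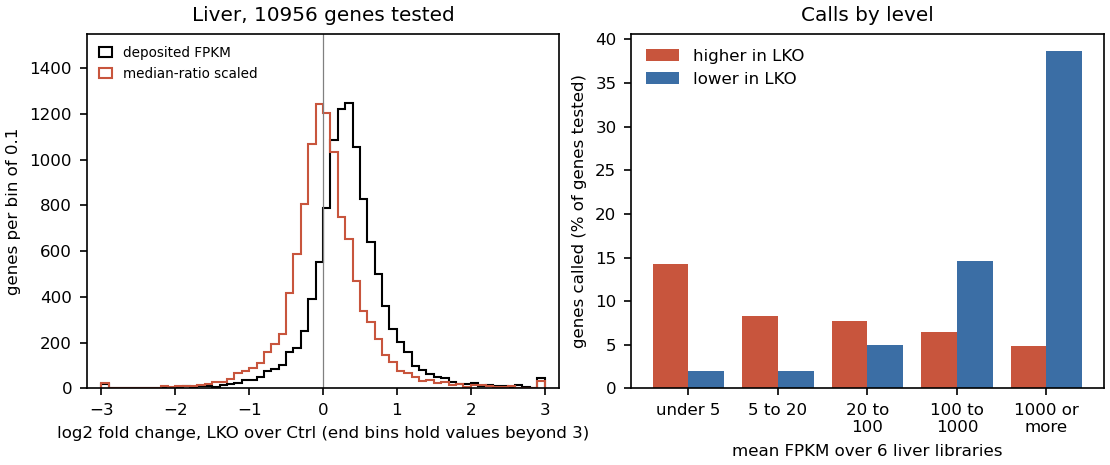
Left, number of genes per bin of 0.1 in the log2 fold change of LKO over Ctrl livers for the 10956 genes tested, on the deposited FPKM (median 0.33) and after median-ratio scaling (median 0.02). Right, percentage of the genes tested that were called higher or lower in LKO livers, by mean FPKM over the 6 libraries, where the share of lower genes goes from 1.95% under 5 FPKM to 38.7% at 1000 FPKM or more. The lowest bin holds most of the genes that passed the filter only through the LKO libraries (485 of 504). The lower genes at 1000 FPKM or more include near-identical *Mup* copies that share reads.

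The LKO livers did not differ from Ctrl to the same extent. On the scaled values, LKO 3 was the farthest of the 3 from the Ctrl mean for 650 (57.7%) of the higher and 325 (85.1%) of the lower genes. LKO 1 was the nearest for 56.6% and 78.3%. The order was not worked out on the deposited scale. Scaling divides LKO 3 by the largest factor (1.283), which moves it away from Ctrl for lower genes and towards Ctrl for higher genes. Over all genes tested LKO 3 was the farthest for 57.0% and LKO 1 the nearest for 59.9%, so the higher genes were near this background. Across the genes tested, Pearson correlations between libraries were 0.9907 to 0.993 within Ctrl, 0.9582 to 0.9867 within LKO and 0.9136 to 0.958 between the groups; genes are not independent replicates. Depth, worked out from the coverage and FPKM of each gene, was 8.09, 5.56 and 5.42 gigabases for Ctrl 1 to 3 and 5.54, 4.93 and 4.7 gigabases for LKO 1 to 3. Over the same 10956 genes, leaving out LKO 1 gave 1486 higher and 520 lower genes, leaving out LKO 2 gave 855 and 259, and leaving out LKO 3 gave 930 and 300. Without Ctrl 1, Ctrl 2 or Ctrl 3 there were 836, 791 and 816 higher and 269, 252 and 250 lower genes. These fits with 5 libraries are called omissions below, and they are given for a gene or list where the call was lost or the count moved by more than 1.5 times.

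**Figure D2:**
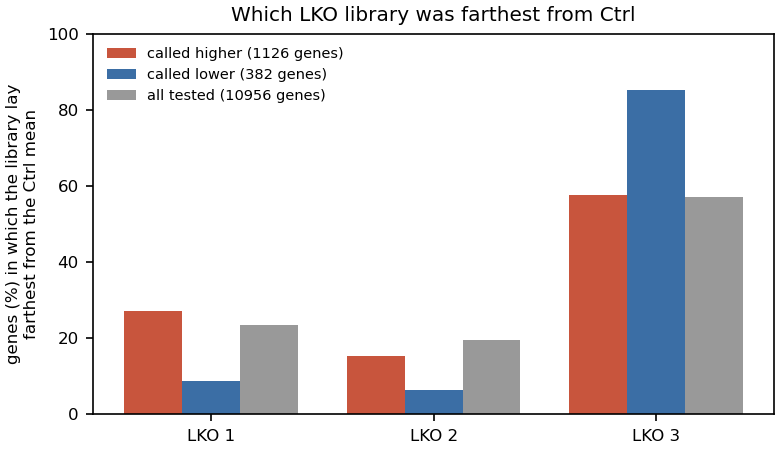
Percentage of genes (called higher, called lower and all tested) for which each LKO library lay farthest from the mean of the 3 Ctrl libraries in the direction of the change, on median-ratio scaled log2(FPKM + 1). LKO 3 is the farthest for 57.7% of the higher and 85.1% of the lower genes.

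Several markers of Kupffer cells, macrophages and stellate cells were higher in the LKO livers, where 10.3% of all genes tested were. The summed level of 8 Kupffer cell markers was 110 to 114 FPKM in Ctrl and 231 to 379 FPKM in LKO livers, with 5 higher, among them the scavenger receptor *Marco* (1.91 to 2.07 FPKM against 11.6 to 35.9 FPKM). Markers of monocytes and recruited macrophages summed to 69.4 to 74.5 and 200 to 293 FPKM, and 5 of 12 were tested. All 5 were higher, but *Trem2*, a receptor of lipid-handling macrophages (2.73 to 4.33 FPKM in LKO), and *Gpnmb* passed the filter only through the LKO libraries, which leaves 3 that did not, with the lysozyme gene *Lyz2* (1.11 ± 0.10). The other 7, *Ly6c2* and *Ccr2* among them, were too low to test. For stellate cells and fibroblasts the sums were 153 to 168 and 342 to 390 FPKM, with 8 of 14 higher, such as *Col3a1* (4.68, 5.44 and 5.63 against 24.9, 21.0 and 27.4 FPKM) and *Col1a1* (1.49 ± 0.13). The Kupffer, macrophage and stellate cell sums of deposited FPKM did not overlap between the groups, and neither did those of neutrophils, cholangiocytes and sinusoidal endothelium below, nor 61.1% of single genes. After median-ratio scaling the sinusoidal endothelial sums overlapped and the other 5 did not. In a whole organ more cells of a type and more RNA per cell cannot be told apart.

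Cholangiocyte markers, with the keratins *Krt7* and *Krt19* (the latter not called without Ctrl 1 or Ctrl 2), summed to 48.2 to 55.2 FPKM in Ctrl and 74.9 to 128 FPKM in LKO livers, with 4 of 8 higher, 2 without Ctrl 2, and 2 of the 4 passed the filter only through the LKO libraries. The neutrophil list had low sums, 1.61 to 2.37 FPKM in Ctrl and 9.8 to 12 FPKM in LKO livers. Of its 11 genes 3 were tested, 2 of which passed the filter only through the LKO libraries. *S100a8* and *S100a9* were higher at 2.76 to 4.88 FPKM in LKO, while *Ly6g*, *Camp* and *Ltf* were too low to test. In sinusoidal endothelium 1 of 10 markers was higher (*Lyve1*, 0.91 ± 0.17), with sums of 131 to 145 and 156 to 243 FPKM. No T or NK cell marker was tested (sums of 1.97 to 2.81 and 2.48 to 3.67 FPKM), and the 1 B cell marker tested, *Cd79b*, was not called, nor was the 1 adipocyte marker, *Cfd*. Of blood markers *Car1* was lower (2 were lower without LKO 1) and *Hbb-bs* was not (101, 106 and 190 against 83.6, 143 and 142 FPKM). Of 2 tested pancreas and gut markers the elastase *Cela1* was lower (18.1 to 24.8 against 3.79 to 6.9 FPKM; 2 were lower without LKO 1), and 7 of that list were listed at 0 in every library. The hepatocyte list had 2 of 10 lower, *Cyp2e1* and *Serpina1b*, with *Serpina1b* not called without Ctrl 1, Ctrl 2, Ctrl 3, LKO 2 or LKO 3, and its sums, most of which were *Alb*, overlapped (61011 to 63964 and 44624 to 71015 FPKM). Over the 10 hepatocyte markers the median log2 fold change was -0.64 after scaling and -0.27 on the deposited scale. Positive values were found for 0 after scaling and for 2 on the deposited scale. Below Ctrl without overlap were 5, where 61.1% of all genes tested did not overlap in either direction.

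**Figure D3:**
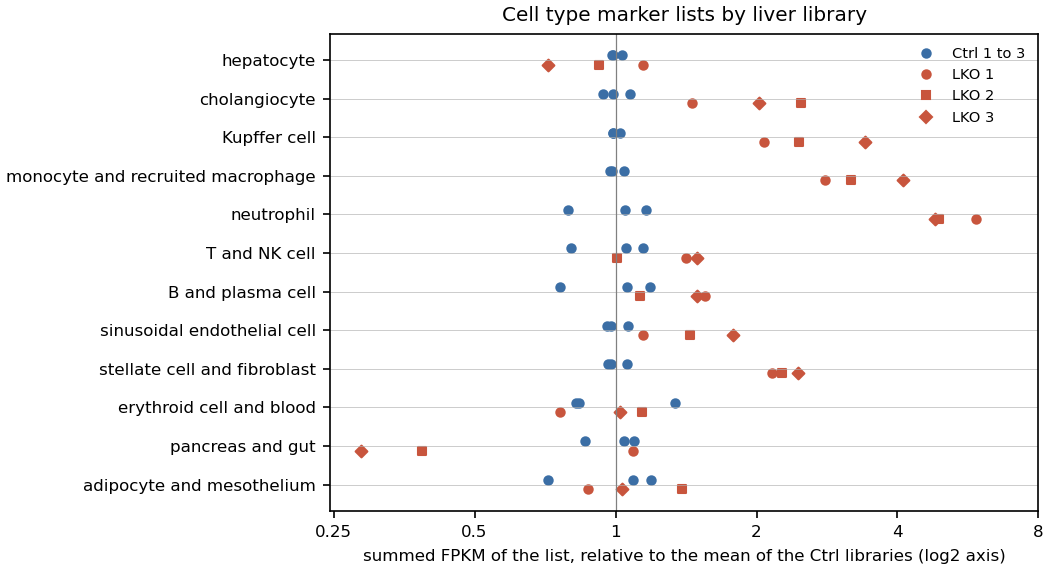
Summed FPKM of each cell type marker list in the 6 liver libraries, divided by the mean of the 3 Ctrl libraries, on a log2 axis. Points are libraries, and the LKO points of the Kupffer, monocyte and macrophage, neutrophil, stellate cell, cholangiocyte and sinusoidal endothelial lists lie to the right of all Ctrl points, while hepatocyte points of both groups overlap.

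Metallothioneins and glutathione S-transferases of the alpha class were among the largest rises. *Mt2* (chr8:94172618-94173567, mm10), which encodes a small protein that binds zinc and copper, was at 2.47, 2.96 and 3.72 FPKM in Ctrl and 113, 230 and 246 FPKM in LKO livers. Its neighbour *Mt1* (chr8:94179089-94180327) was at 9.45, 15.8 and 15.1 FPKM against 214, 375 and 427 FPKM. Every LKO liver was far above every Ctrl liver for both genes, by 5.22 ± 0.24 and 4.17 ± 0.25 on the log2 scale (adjusted p = 2.5e-04 and 4.0e-04). The 250 bases before the start of *Mt1* and *Mt2* are shown because metallothionein genes are known to be induced through metal response elements there, whose core was searched as TGCACNC or TGCGCNC on both strands. The sequences are from RefSeq (GRCm38.p6), *Mt1* at chr8:94178839-94179088 and *Mt2* at chr8:94172368-94172617, both on the plus strand, with 1 and 3 matches in capitals.

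Mt1: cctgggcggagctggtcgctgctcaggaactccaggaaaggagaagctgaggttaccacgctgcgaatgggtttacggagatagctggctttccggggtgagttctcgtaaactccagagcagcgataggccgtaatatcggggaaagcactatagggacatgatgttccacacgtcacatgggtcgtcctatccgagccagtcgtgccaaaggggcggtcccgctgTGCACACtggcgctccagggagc
Mt2: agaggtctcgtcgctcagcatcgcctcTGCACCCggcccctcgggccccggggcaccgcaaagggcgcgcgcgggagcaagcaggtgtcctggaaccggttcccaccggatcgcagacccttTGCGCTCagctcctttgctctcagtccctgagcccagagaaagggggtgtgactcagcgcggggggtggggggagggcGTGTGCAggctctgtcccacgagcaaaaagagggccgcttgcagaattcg

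A match of this short core was found in such a window of 33.7% of the 8754 tested genes that had one, of 31.7% of the higher and 26.9% of the lower genes. On chromosome 9, *Gsta1* went from 4.72, 2.61 and 2.82 to 44.9, 153 and 173 FPKM (4.32 ± 0.43, adjusted p = 0.00174). Its neighbours *Gm3776* and *Gm10639* rose by 4.61 ± 0.43 and 3.78 ± 0.44 on the same scale, and with *Gsta2* they formed 4 tested genes in a row, all higher (chr9:78230669-78347145, median 4.05). Near-identical copies share reads, so the split within this cluster is uncertain. Shared reads can also make the 4 move the same way, so their common direction is no separate support. *Cyp2a4*, a steroid hydroxylase, was at 5.61, 3.91 and 2.5 FPKM in Ctrl and 91, 94.2 and 214 FPKM in LKO livers (4.35 ± 0.33, adjusted p = 8.3e-04), with the same caution for the neighbouring *Cyp2a5*.

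*Ly6d* (chr15:74762056-74763567), a membrane-anchored Ly6 protein, was under 1 FPKM in all Ctrl livers (0.996, 0.469 and 0.216 FPKM) and at 52.2, 120 and 143 FPKM in LKO livers. Of the 20 named rises it was the largest (5.75 ± 0.32, adjusted p = 3.4e-04). *Cd63*, a tetraspanin of late endosomes, went from 2.82, 3.3 and 3.6 to 29.9, 111 and 175 FPKM (4.0 ± 0.51, adjusted p = 0.00343). *Gpnmb*, a glycoprotein of lysosome-rich cells and also one of the macrophage markers, was at 0.0519 FPKM in Ctrl 1 and listed at 0 in Ctrl 2 and 3, against 8.22, 26.3 and 43.9 FPKM. *Sprr1a*, a cornified envelope protein, was listed at 0 in all Ctrl livers and at 4.85, 21 and 17.2 FPKM in LKO livers. LKO 1 was the lowest of the LKO livers for each of these 4 genes. Among the 20 named rises were also *D17H6S56E-5* (4.19 ± 0.32), *Uap1l1*, related to the enzyme that makes UDP-N-acetylglucosamine (3.32 ± 0.43), *2010003K11Rik* (3.12 ± 0.21) and *Acot2*, a mitochondrial acyl-CoA thioesterase (3.12 ± 0.52). *Wfdc3* (4.46 ± 0.94) was not called without Ctrl 1, Ctrl 2, Ctrl 3 or LKO 2. *Sap18b* (3.22 ± 0.84) and *Vmn2r3*, listed at 0 in all Ctrl livers, were called without LKO 1 and under no other omission, and *Trib3* (4.22 ± 0.87), an inhibitor of AKT, was not called without Ctrl 1, Ctrl 2 or LKO 2.

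LKO 1 was the farthest from Ctrl for 27.0% of all higher genes, near the 23.5% of all genes tested. *Cdc20*, an activator of the anaphase-promoting complex, was at 0.287, 0.543 and 1.06 FPKM in Ctrl and at 40.5, 14.5 and 13.3 FPKM in LKO livers (3.47 ± 0.49, adjusted p = 0.00458). *Ube2c*, the ubiquitin-conjugating enzyme of the same complex, was at 0.2, 0.466 and 0.918 against 24.2, 8.85 and 15 FPKM (3.17 ± 0.39, adjusted p = 0.00318). LKO 1 was the highest LKO liver for both, as it was for *Ccnb1*, the cyclin of entry into mitosis (16.9, 7.38 and 7.32 FPKM), the survivin gene *Birc5* (14.8, 7.28 and 6.14 FPKM), the kinesin *Kif20a* (13.6, 5.68 and 4.69 FPKM) and *Stmn1*, which destabilises microtubules (50.1, 21.5 and 24 FPKM). These 6 genes were picked after their values were seen and are no count of mitotic genes, and *Ube2c*, *Ccnb1*, *Birc5* and *Kif20a* passed the filter only through the LKO libraries. The start of both promoters is shown for the cell cycle homology region, searched as TTTGAA on both strands, from RefSeq (GRCm38.p6): *Cdc20* at chr4:118437344-118437593 on the minus strand and *Ube2c* at chr2:164769679-164769928 on the plus strand, each with 1 match within 30 bases of the gene start, in capitals.

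Cdc20: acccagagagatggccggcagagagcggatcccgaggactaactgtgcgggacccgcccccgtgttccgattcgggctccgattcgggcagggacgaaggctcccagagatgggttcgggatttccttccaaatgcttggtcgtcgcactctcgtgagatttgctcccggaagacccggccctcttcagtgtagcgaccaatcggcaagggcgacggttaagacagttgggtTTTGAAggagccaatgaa
Ube2c: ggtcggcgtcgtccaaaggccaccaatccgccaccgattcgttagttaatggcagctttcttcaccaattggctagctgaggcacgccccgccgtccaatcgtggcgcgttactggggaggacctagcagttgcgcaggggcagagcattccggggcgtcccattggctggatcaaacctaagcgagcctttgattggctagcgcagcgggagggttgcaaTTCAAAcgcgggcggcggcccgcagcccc

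The same letters occurred in windows of 13.1% of the tested genes, 14.3% of the higher and 17.2% of the lower. Of all genes, 47 were under 0.5 FPKM in every Ctrl and at 2 FPKM or more in every LKO liver, and 2 did the reverse. Among the 47 were *Kif20a*, *Ccnb1*, *Sprr1a*, the pancreatic trypsin inhibitor *Spink1* (2.54 ± 0.19), *Lysmd2* (2.60 ± 0.15) and *Abcc4*, an exporter of bile acids and nucleotides (2.72 ± 0.49). The 2 in the other direction were *Slc13a2*, a citrate transporter (2.13 to 3.72 against 0.0445 to 0.254 FPKM), and *Mup5*.

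**Figure D4:**
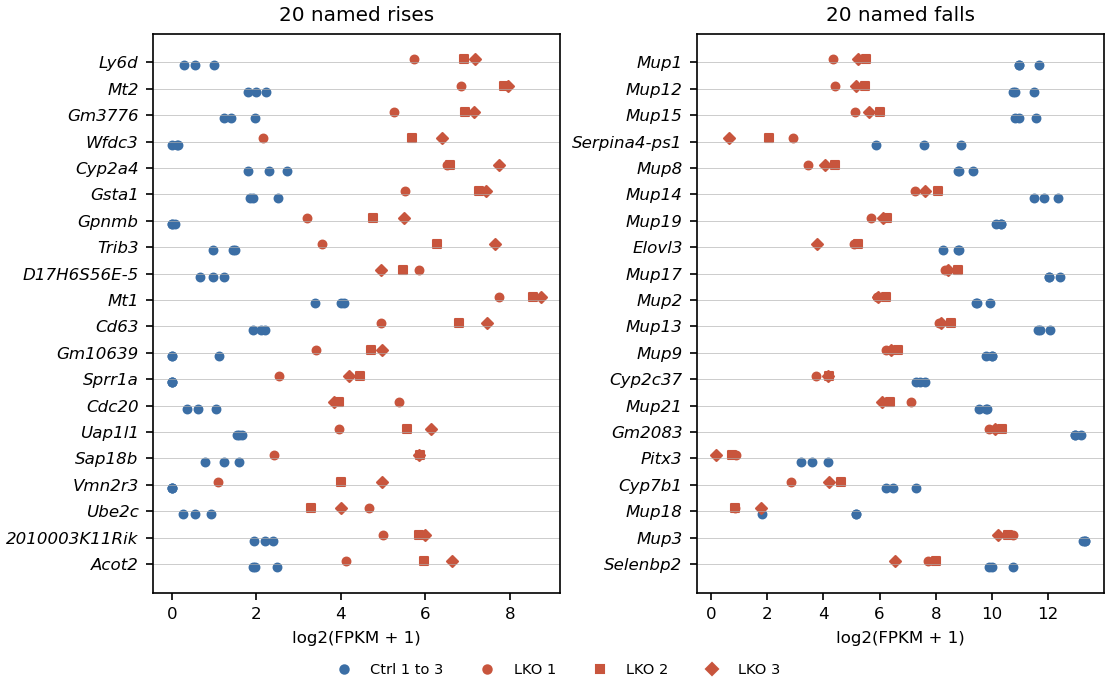
log2(FPKM + 1) on the deposited scale in each of the 6 liver libraries for the 20 rises and 20 falls in LKO livers that were named for their size, called and without overlap between groups; 8 rises and 2 falls as large are set aside. LKO 1 is the lowest LKO library for most rises and the highest for *Cdc20*, *Ube2c* and *D17H6S56E-5*, and *Mup* genes make up most of the falls.

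Major urinary proteins, which are secreted by the liver and carry pheromones in urine, made up most of the 20 named falls. The 21 *Mup* genes of the table held 8.96%, 9.22% and 11.7% of all FPKM in Ctrl livers and 1.6%, 1.78% and 1.34% in LKO livers. *Mup1* was at 2001, 1980 and 3305 FPKM against 19.4, 44.6 and 36.9 FPKM (-6.53 ± 0.30, adjusted p = 2.5e-04), and *Mup19* at 1282, 1128 and 1272 against 50.9, 76.2 and 69.2 FPKM (-4.59 ± 0.13, adjusted p = 1.4e-04). The family fell unequally: *Mup3* was at 9787, 10273 and 10096 against 1725, 1515 and 1204 FPKM (-3.14 ± 0.26), and *Mup20* at 8544 to 9448 against 3548 to 4954 FPKM (-1.41 ± 0.27), the latter not called without Ctrl 3. *Mup18* was not called without Ctrl 2, Ctrl 3, LKO 2 or LKO 3. LKO 3 was not the lowest for every member, since LKO 1 was the lowest for *Mup1* and *Mup19*. The copies are near-identical and *Gm2083* spans several of them, so the shares of single members are uncertain.

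The windows of *Mup19* and *Mup3* are shown because D-box-like letters, TTANGNAA on both strands, occurred in 11 of 13 (84.6%) windows of lower *Mup* genes, against 37 of 277 (13.4%) of the other lower genes and 9.44% of all tested genes. They were 1 of 11 patterns searched in these windows and were picked after the shares were seen. Of the others, STAT-like letters TTCNNNGAA were in 5.52% of lower and 7.06% of all windows, E-box letters CACGTG in 7.24% and 10.2%, AP-1-like letters TGANTCA in 11% and 5.67%, and HNF1-like letters GTTAATNAT in 2.41% and 0.674%. The sequences are from RefSeq (GRCm38.p6), on the minus strand, *Mup19* at chr4:61782225-61782474 and *Mup3* at chr4:62087318-62087567. The match of *Mup19* is in capitals, and *Mup3* had none. The *Mup* copies share much of their sequence and are not independent of each other.

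Mup19: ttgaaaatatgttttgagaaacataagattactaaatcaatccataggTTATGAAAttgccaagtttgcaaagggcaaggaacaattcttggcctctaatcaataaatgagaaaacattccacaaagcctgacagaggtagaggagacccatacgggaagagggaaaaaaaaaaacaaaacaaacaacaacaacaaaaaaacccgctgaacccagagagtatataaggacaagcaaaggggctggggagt
Mup3: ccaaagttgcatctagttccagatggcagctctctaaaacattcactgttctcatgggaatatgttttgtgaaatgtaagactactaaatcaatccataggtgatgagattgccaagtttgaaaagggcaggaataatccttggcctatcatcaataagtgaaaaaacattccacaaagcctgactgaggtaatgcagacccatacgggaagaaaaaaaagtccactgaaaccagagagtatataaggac

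The 6 named falls outside the *Mup* region were *Elovl3*, *Pitx3*, *Cyp2c37*, *Cyp7b1*, *Selenbp2* and *Serpina4-ps1*. *Elovl3*, which elongates very long-chain fatty acids, was at 441, 305 and 451 FPKM in Ctrl and 33.4, 36.3 and 12.8 FPKM in LKO livers (-4.27 ± 0.44, adjusted p = 0.00192); its 3' end overlaps that of *Pitx3* (-3.27 ± 0.28) on the other strand, and without strand in the library their reads cannot be told apart there. *Cyp2c37*, a cytochrome P450 of arachidonic acid metabolism, was at 172, 193 and 155 against 12.3, 17.2 and 16.7 FPKM (-3.77 ± 0.12, adjusted p = 1.4e-04). *Cyp7b1*, an oxysterol hydroxylase of bile acid synthesis, was at 87.1, 74.6 and 157 against 6.11, 23.4 and 17.3 FPKM (-3.15 ± 0.45, adjusted p = 0.00549). *Selenbp2*, which binds selenium, was at 952, 1020 and 1719 against 213, 259 and 92.2 FPKM (-3.14 ± 0.48, adjusted p = 0.00571). No overlap between the groups was a condition for naming these genes, and it held for 61.1% of all genes tested. The pseudogene *Serpina4-ps1* differed most among the Ctrl livers (57.6, 471 and 190 FPKM) and was at 6.54, 3.15 and 0.545 FPKM in LKO livers (-5.84 ± 0.88, adjusted p = 0.00553).

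Transcripts with a sex bias in mouse liver moved in both directions. Of 35 male-biased genes tested, 22 (62.9%) were lower and 1, *Wee1*, higher, with sums of 17355 to 19676 FPKM in Ctrl and 6568 to 8598 FPKM in LKO livers and a median log2 fold change of -1.41. At an unadjusted p under 0.05 in both limma fits these were 27 and 1. Besides the *Mup* genes, *Slco1a1*, an uptake transporter of organic anions, was at 120, 148 and 129 FPKM against 40.9, 36.0 and 30.1 FPKM (-2.23 ± 0.21, adjusted p = 0.0014), with no overlap. Of 32 female-biased genes, 15 (46.9%) were higher and 5 lower (10 and 5 of 26 without those that passed the filter only through the LKO libraries), with a median log2 fold change of 0.71, and the sums overlapped (1123 to 1364 FPKM in Ctrl and 984 to 1319 FPKM in LKO livers). The fatty acid translocase *Cd36* rose from 7.1, 5.54 and 4.77 to 39.4, 66.1 and 84.3 FPKM (2.85 ± 0.21), whereas the 5 lower ones were all *Cyp2c* genes that share reads, such as *Cyp2c54* (-2.78 ± 0.15).

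Many serpins are protease inhibitors secreted by hepatocytes, and carboxylesterases are kept in the endoplasmic reticulum. Of 27 serpins, 12 (44.4%) were lower and 5 (18.5%) higher, and the sums were 38443 to 41439 FPKM in Ctrl and 11018 to 25768 FPKM in LKO livers. Without Ctrl 1, Ctrl 2, Ctrl 3 or LKO 2 only 3 were lower. *Serpina1e*, an alpha-1 antitrypsin, went from 11328, 12856 and 13424 to 6109, 2612 and 1364 FPKM (-2.53 ± 0.60, adjusted p = 0.023) and was not called under those same omissions, the order of the LKO livers being 1, 2, 3. *Serpina12*, encoding vaspin, was called under each omission (-2.70 ± 0.25), while *Serpina7*, which carries thyroxine, rose from 12.3, 15.0 and 5.95 to 68.0, 131 and 170 FPKM (3.00 ± 0.37). Of 18 carboxylesterases and related deacetylases 7 (38.9%) were lower, 4 without Ctrl 2 or LKO 2, and 0 higher (2 without LKO 1, and 2 at an unadjusted p under 0.05 in both limma fits). *Ces3b* (-2.59 ± 0.35) and *Ces3a* (-1.61 ± 0.28) fell from 251 to 352 and 1136 to 1228 FPKM to 42.1 to 85.7 and 381 to 657 FPKM.

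Called genes also lay side by side: 18 runs held 4 or more neighbouring tested genes called in the same direction. Lower runs held 8 serpin genes within 359 kb (chr12:103728156-104086920), 8 *Cyp2d* genes (chr15:82389154-82794245), 6 *Cyp2c* genes (chr19:39767073-40187286) and 11 and 7 *Mup* region genes on chromosome 4. Higher runs held 7 S100 and envelope genes on chromosome 3, 6 genes with *Cyp2b10* and *Cyp2a4* on chromosome 7, 5 *Cd300* leukocyte receptors on chromosome 11 and the thioesterases *Acot1* to *Acot4* (chr12:83987861-84060400, median 1.21). On chromosome 2 a higher run of *Dpp7*, *Uap1l1*, *Entpd2* and *Npdc1* (chr2:25352290-25409494) lay beside a lower run of *Clic3*, *BC029214*, *Ptgds* and *C8g* (chr2:25456843-25501719). In families of copies, shared reads can add to such runs.

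Of 36 actin cytoskeleton genes 17 (47.2%) were higher and 0 lower, with sums of 1329 to 1505 FPKM in Ctrl and 2138 to 2823 FPKM in LKO livers and a median log2 fold change of 0.52. They included *Tagln2* (1.89 ± 0.20), the tropomyosin *Tpm1* (1.68 ± 0.23) and *Tmsb10*, which sequesters actin monomers (1.43 ± 0.15). Of 15 keratins and other intermediate filament genes 9 (60.0%) were higher and 0 lower: *Krt8*, the main type II keratin of hepatocytes, was at 152, 108 and 125 FPKM in Ctrl and 383, 454 and 463 FPKM in LKO livers (1.40 ± 0.13, adjusted p = 0.00159), and *Ppl*, a desmosomal linker (1.88 ± 0.22), *Vim* (1.31 ± 0.11) and *Krt23* (1.29 ± 0.25) rose too. Annexins and S100 proteins, which bind calcium, had 10 (58.8%) of 17 higher and 0 lower. *Anxa2* was at 7.89, 5.88 and 5.86 against 47.3, 74.2 and 107 FPKM (2.95 ± 0.21, adjusted p = 7.3e-04), and *S100a11* (2.66 ± 0.21) and *Anxa5* (1.97 ± 0.19) followed. Neither *Krt8* nor *Anxa2* overlapped between the groups. Of 22 tubulins and microtubule genes 7 (31.8%) were higher, 3 without Ctrl 1, Ctrl 2 or Ctrl 3 and 4 without LKO 1, and 0 lower (1 without LKO 3), with *Tuba8* (0.927, 1.13 and 1.61 against 14.3, 16.6 and 24.2 FPKM, 2.83 ± 0.16) and *Tubb6* (2.19 ± 0.12). At an unadjusted p under 0.05 in both limma fits, the actin, keratin, annexin and tubulin lists had 29, 12, 12 and 12 genes higher and 0 lower. Some of these genes, such as *Vim*, *Krt7*, *Krt19* and *S100a8*, are also expressed by or used here as markers of the non-parenchymal cells whose markers moved with them, and the part of those cells in the result was not tested.

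Of 17 subunits of the vacuolar ATPase, the proton pump of the lysosome, 8 (47.1%) were higher and 0 lower, 5 without any single library other than LKO 1 (Ctrl 1, Ctrl 2, Ctrl 3, LKO 2 or LKO 3 in turn), with sums of 403 to 410 and 560 to 956 FPKM. *Atp6v0d2*, at 0.201 to 0.324 FPKM in Ctrl and 2.66 to 3.68 FPKM in LKO livers, passed the filter only through the LKO libraries, and 7 of the other 16 subunits were higher. *Atp6v1b2* was at 11.6 to 12.7 and 23 to 48.3 FPKM (1.11 ± 0.17). Among 47 lysosomal hydrolases and membrane proteins 12 (25.5%) were higher, 19 without LKO 1, and 0 lower, against 24 and 1 at an unadjusted p under 0.05 in both limma fits. The scavenger receptor *Cd68* (1.55 ± 0.23) and *Laptm5* (1.31 ± 0.12), both known from macrophages, were called under each omission, and the protease *Ctsl* (124, 111 and 118 against 213, 551 and 913 FPKM) was not called without Ctrl 1, Ctrl 2, Ctrl 3 or LKO 2. Kupffer and macrophage marker sums rose with these genes, and their part in the result was not tested. Of 20 tetraspanin and Ly6 genes 7 (35%, against 10.3% of all genes; 5 of 18, or 27.8%, without those that passed the filter only through the LKO libraries) were higher and *Tspan33* lower (-1.32 ± 0.15). Of 36 autophagy genes *Sqstm1*, which encodes the cargo receptor p62, was higher (194 to 211 against 350 to 1147 FPKM; 0 were higher without Ctrl 1, Ctrl 2, Ctrl 3 or LKO 2 and 2 without LKO 1) and 0 were lower (1 without Ctrl 1 or LKO 1), against 4 and 2 at an unadjusted p under 0.05 in both limma fits.

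**Figure D5:**
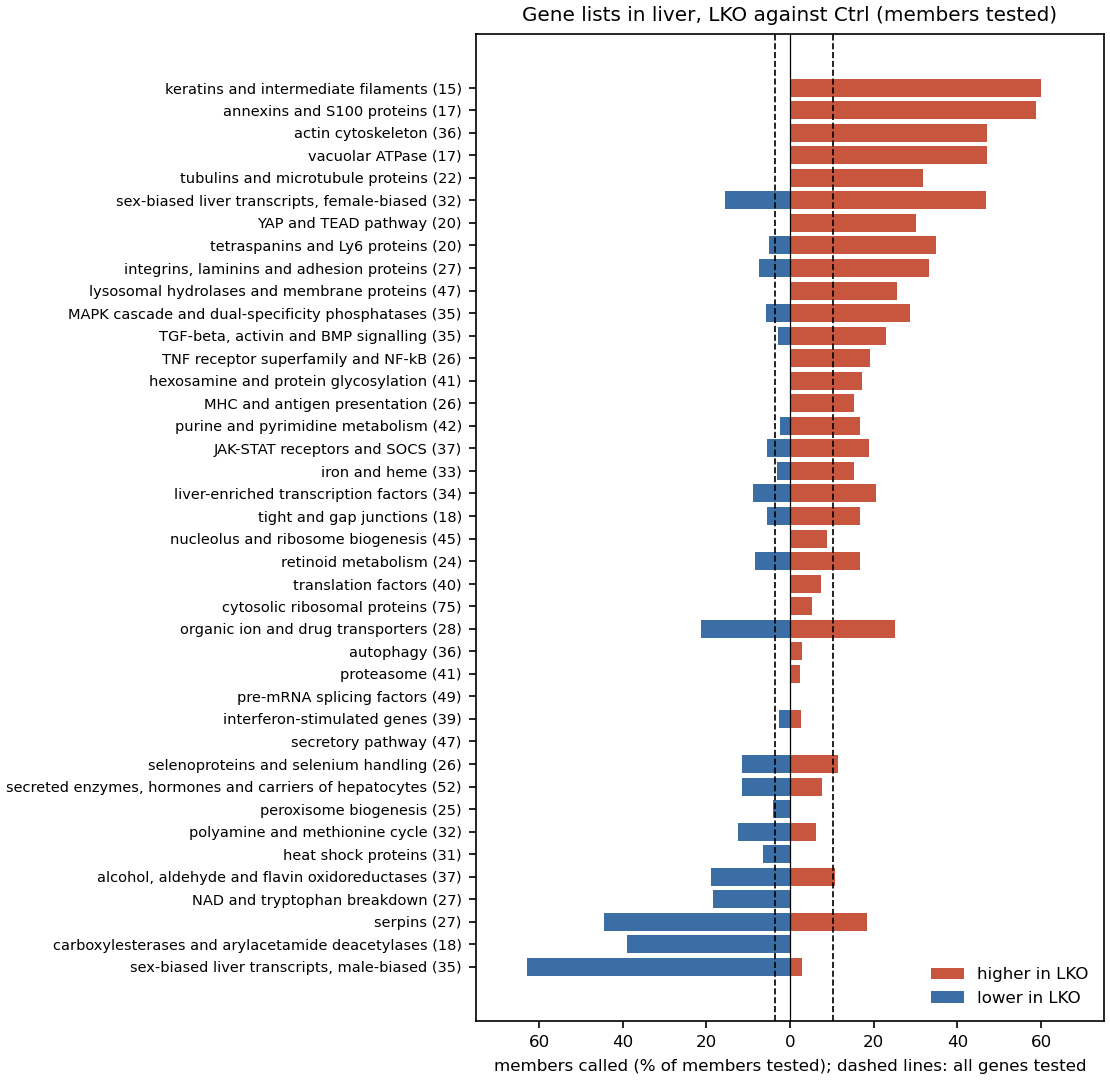
Percentage of the tested members of each process list that were called higher (to the right) or lower (to the left) in LKO livers, with the number of members tested in parentheses and dashed lines at the percentages of all genes tested, 10.3% higher and 3.49% lower. Keratins (60.0%), annexins and S100 proteins (58.8%) and actin genes (47.2%) have the most higher members, and male-biased transcripts (62.9%) the most lower members.

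*Tnfrsf12a*, the receptor of TWEAK, was at 4.55, 6.68 and 4.88 FPKM in Ctrl and 34.8, 84.8 and 100 FPKM in LKO livers (3.09 ± 0.31, adjusted p = 0.00179). With *Relb* (1.22 ± 0.18) and *Nfkb2* (0.90 ± 0.12), subunits of non-canonical NF-kB, it was among 5 (19.2%, against 10.3% of all genes) of 26 genes of that list higher. In that list 0 were lower (11 and 0 at an unadjusted p under 0.05 in both limma fits). *Relb* passed the filter only through the LKO libraries, as did 4 genes that were not called, and of the other 21 genes 4 were higher. *Vcam1*, an adhesion molecule for leukocytes, was at 1.77, 2.19 and 1.95 against 13, 13.9 and 19.8 FPKM (2.16 ± 0.12, adjusted p = 3.4e-04). It was 1 of 9 (33.3%) higher among 27 integrins, laminins and adhesion genes, with *Nid1* of the basement membrane (1.67 ± 0.16) and *Cd44* (1.08 ± 0.09), while 2 were lower, *Lama3*, which passed the filter only through the Ctrl libraries, and *Sdc4*. Without genes that passed through 1 group only, 7 were higher and 1 lower of 23, and *Sdc4* was called without LKO 1 and under no other omission. Stellate cell, Kupffer and macrophage marker sums rose with the higher adhesion genes, and the part of those cells was not tested. *Id1*, a target of bone morphogenetic proteins (2.34 ± 0.24), was 1 of 8 (22.9%) higher among 35 TGF-beta, activin and BMP genes, and *Bmp1* was lower (-1.14 ± 0.24), though not without Ctrl 1, Ctrl 2, Ctrl 3 or LKO 2, with 2 lower without LKO 1. In the MAPK list 10 (28.6%) of 35 were higher, 5 without LKO 2, but 6 of the 10 passed the filter only through the LKO libraries, and of the other 28 genes 4 (14.3%) were higher. The stress sensor *Gadd45a* (2.97 ± 0.34) was called under each omission. *Gadd45b* and the EGF family ligands *Areg* and *Btc* were among those 6, and *Areg* and *Btc* were not called without Ctrl 1, Ctrl 2, Ctrl 3 or LKO 2. The 2 lower genes were *Egfr* and *Map2k6*, with 0 called without Ctrl 3 or LKO 2 and 1 without Ctrl 1, Ctrl 2, LKO 1 or LKO 3. Of 20 YAP and TEAD genes 6 (30%) were higher, 3 without Ctrl 2 or Ctrl 3, and 0 lower (9 and 0 at an unadjusted p under 0.05 in both limma fits), with the galectin *Lgals1* (1.84 ± 0.13). *Map4k4*, a kinase of stress signalling singled out after its values were seen for its small spread, was at 2.71, 2.95 and 2.67 against 13.8, 13.4 and 15.7 FPKM (1.71 ± 0.09, adjusted p = 3.4e-04).

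The list of cytokine receptors with JAK, STAT and SOCS genes had 7 (18.9%, against 10.3% of all genes) of 37 higher, such as *Ifngr1* (1.48 ± 0.23) and *Il10rb* (0.89 ± 0.12). Lower were 2 (against 3.49% of all genes). Of these *Lifr*, the leukemia inhibitory factor receptor, went from 50, 62.4 and 54.6 to 29.1, 13.8 and 16.5 FPKM (-1.86 ± 0.32, adjusted p = 0.00834). The other was *Il1rap*, an accessory protein of the interleukin-1 receptor that does not signal through JAK kinases. Interferon-stimulated genes had 1 (2.56%) of 39 higher and 1 lower, against 8 and 8 at an unadjusted p under 0.05 in both limma fits, with 0 higher without Ctrl 1, Ctrl 2, Ctrl 3 or LKO 3, 2 without LKO 2 and 4 without LKO 1, and 0 lower without Ctrl 3, LKO 2 or LKO 3, 3 without Ctrl 2 and 4 without LKO 1. In the MHC list 4 (15.4%, near the 10.3% of all genes) of 26 were higher, with the class II genes *H2-Aa*, *H2-Ab1* and *H2-Eb1* (of which *H2-Ab1* was called without Ctrl 3 and under no other omission, *H2-Aa* not without Ctrl 1 or Ctrl 2, and *H2-Eb1* not without Ctrl 1, Ctrl 2 or LKO 3), 0 without Ctrl 1 or Ctrl 2 and 2 without LKO 1, LKO 2 or LKO 3, and 0 were lower (9 and 0 at an unadjusted p under 0.05 in both limma fits). Kupffer and macrophage marker sums rose with the MHC genes, and the part of those cells was not tested. Transcription factors had 7 (20.6%) of 34 higher, 3 without Ctrl 3, and 3 (8.82%) lower. *Klf6* (2.10 ± 0.21) and *Klf10* (1.94 ± 0.31) were called under each omission, and the lower ones, *Tef*, *Hlf* and *Klf15*, include the circadian factors *Tef* and *Hlf*. Tight and gap junction genes had 3 (16.7%) of 18 higher and 1 (5.56%) lower, near the 10.3% and 3.49% of all genes, with *Marveld2* (0.72 ± 0.08) among the higher and, as the lower gene, *Gjb1*, the main connexin of hepatocytes (-1.0 ± 0.28), which was called without LKO 1 and under no other omission.

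*Ftl1*, the ferritin light chain, was at 2212, 2153 and 2122 FPKM in Ctrl and 3827, 5305 and 6565 FPKM in LKO livers, and *Fth1* at 928, 871 and 904 against 1327, 2119 and 2728 FPKM. Both rose without overlap (0.87 ± 0.19 and 0.76 ± 0.20, adjusted p = 0.0171 and 0.0304), but neither was called without Ctrl 1, Ctrl 2, Ctrl 3 or LKO 2, nor *Fth1* without LKO 3. *Hmox1*, which degrades heme (2.0 ± 0.14), *Lcn2*, which binds bacterial iron carriers (2.64 ± 0.26), and the iron exporter *Slc40a1* (1.05 ± 0.18) were called under each omission. In all 5 (15.2%) of 33 iron and heme genes were higher, 3 without Ctrl 1, Ctrl 2, Ctrl 3 or LKO 2, which is near the 10.3% of all genes, and *Abcb10* lower (-1.06 ± 0.16; 3 lower without LKO 1). The median log2 fold change of the list was -0.16 after scaling and 0.20 on the deposited scale. *Dio1*, the deiodinase that makes active thyroid hormone, was at 53.2, 63.2 and 63.9 against 19.6, 16.8 and 13.7 FPKM (-2.15 ± 0.21, adjusted p = 0.00171), and it was lower with *Selenbp1* (-1.42 ± 0.21) and *Selenbp2* among 26 selenoprotein and selenium genes, 3 (11.5%) of which were higher.

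Tryptophan breakdown and NAD genes had 5 (18.5%) of 27 lower, 2 without Ctrl 1, Ctrl 2, Ctrl 3 or LKO 2, and 0 higher (1 without LKO 1, and 3 at an unadjusted p under 0.05 in both limma fits). *Ido2* was called under each omission (37.3 to 42.2 against 11.9 to 19.3 FPKM, -1.67 ± 0.24), as was *Aspdh* (-1.20 ± 0.22), and *Haao* and *Afmid* were not called without Ctrl 1, Ctrl 2, Ctrl 3 or LKO 2. Of 37 alcohol, aldehyde and flavin oxidoreductases 7 (18.9%, against 3.49% of all genes) were lower, with *Adh6-ps1* (-2.15 ± 0.18). There were 4 lower without Ctrl 1, 3 without Ctrl 2 or Ctrl 3 and 2 without LKO 2. Higher were 4 (10.8%, near the 10.3% of all genes), 2 without Ctrl 2 or LKO 2 and 1 without Ctrl 3. The mitochondrial *Aldh1b1* went from 26, 24.1 and 28.1 to 144, 114 and 126 FPKM (1.89 ± 0.17, adjusted p = 0.00124). *Cyp2e1*, the ethanol-inducible cytochrome, was at 2467, 2575 and 2441 against 801, 951 and 898 FPKM (-1.87 ± 0.15, adjusted p = 8.9e-04). Neither *Aldh1b1* nor *Cyp2e1* overlapped between the groups.

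Of 32 polyamine and methionine cycle genes 2 (6.25%, against 10.3% of all genes) were higher, 5 without LKO 1. They were the catabolic *Sat1* (17.7, 17.6 and 27.7 against 67.9, 115 and 87.9 FPKM, 1.70 ± 0.23) and *Smox* (2.02 ± 0.40). In the same list 4 (12.5%, against 3.49% of all genes) were lower, 1 without Ctrl 1 or Ctrl 3 and 2 without Ctrl 2, LKO 2 or LKO 3, among them the methyltransferases *Gnmt*, not called without Ctrl 1, Ctrl 2, Ctrl 3 or LKO 2, and *Bhmt*, not called without Ctrl 1, Ctrl 3 or LKO 3. Drug and ion transporters split, with 7 (25%) of 28 higher, 3 of which passed the filter only through the LKO libraries, 4 without Ctrl 2, Ctrl 3 or LKO 2, and 6 (21.4%) lower, 3 without Ctrl 1, Ctrl 2, Ctrl 3 or LKO 2. Retinoid genes had 4 (16.7%) of 24 higher, near the share of all genes, 2 without Ctrl 1 and 1 without Ctrl 2 or LKO 2, with *Dhrs9* (1.62 ± 0.22), and 2 (8.33%) lower, 1 without LKO 3, with the carotenoid cleaving *Bco2* (-1.33 ± 0.21). In nucleotide metabolism 7 (16.7%) of 42 were higher, again near the share of all genes, 2 without Ctrl 1 or LKO 2, 3 without Ctrl 2 and 1 without Ctrl 3, and *Dpys* lower (-1.17 ± 0.23), 0 being lower without Ctrl 2 and 3 without LKO 1.

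Of 75 cytosolic ribosomal protein genes 4 (5.33%, against 10.3% of all genes) were higher, among them *Rpl22l1* (0.74 ± 0.12), although 71 had a positive fold change after scaling and their sums were 15472 to 17211 FPKM in Ctrl and 19718 to 32421 FPKM in LKO livers; without LKO 1 there were 14, without Ctrl 1 2, and without any of the other 4 libraries (Ctrl 2, Ctrl 3, LKO 2 and LKO 3) 1. Nucleolar and ribosome biogenesis genes had 4 (8.89%) of 45 higher, 19 without LKO 1, 2 without LKO 3 and 0 without Ctrl 1, Ctrl 2, Ctrl 3 or LKO 2. Translation factors had 3 (7.5%) of 40, 7 without LKO 1 and 0 without Ctrl 1, Ctrl 2, Ctrl 3 or LKO 2, and the proteasome had 1 (2.44%) of 41, *Psmd8*, called without LKO 1 and under no other omission. At an unadjusted p under 0.05 in both limma fits, 38 ribosomal protein genes, 13 nucleolar genes and 14 translation factors were higher and 0 of each were lower. Splicing factors (49 tested) and the secretory pathway (47 tested) had 0 called in either direction, and their median log2 fold changes were -0.04 and -0.05 after scaling and 0.31 and 0.30 on the deposited scale, near that of all genes. At an unadjusted p under 0.05 in both limma fits, 6 splicing genes were higher and 0 lower, and 1 secretory gene was higher and 1 lower, and with ordinary variances 0 were called in either list. Heat shock proteins had 2 (6.45%, against 3.49% of all genes) of 31 lower, *Hspa1b* (-1.16 ± 0.13) and *Hspb6*, and 0 higher (1 without Ctrl 2 and 4 without LKO 1). Peroxisome biogenesis had 1 (4%) of 25 lower, *Mpv17l* (-1.32 ± 0.18; 2 without LKO 1), and 0 higher (1 without Ctrl 3 and 2 without LKO 1). At an unadjusted p under 0.05 in both limma fits, 6 heat shock genes were higher and 3 lower, and 2 peroxisome genes were higher and 4 lower. Glycosylation had 7 (17.1%, near the 10.3% of all genes) of 41 higher, with *Uap1l1* and *Nagk* (0.76 ± 0.12). There were 4 higher without Ctrl 1, Ctrl 2, Ctrl 3 or LKO 2.

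Of 52 secreted enzymes, hormones and carriers of hepatocytes 4 (7.69%, near the 10.3% of all genes) were higher, 1 without Ctrl 1 or LKO 2, 0 without Ctrl 2 and 2 without Ctrl 3. In the same list 6 (11.5%, against 3.49% of all genes) were lower, 2 without Ctrl 1, Ctrl 2 or Ctrl 3, 3 without LKO 3 and 11 without LKO 1. *Igfbp1*, which binds insulin-like growth factors, went from 82.3, 115 and 167 to 295, 609 and 826 FPKM (1.81 ± 0.36, not called without Ctrl 2 or LKO 2), and *Mug1*, a protease inhibitor related to alpha-2-macroglobulin, from 1123, 1377 and 1320 to 447, 447 and 300 FPKM (-2.06 ± 0.26, adjusted p = 0.00336). *Enho*, the gene of adropin (-1.99 ± 0.53), was called without LKO 1 and under no other omission. The iron carrier *Trf* (-0.10 ± 0.26, and 0.27 on the deposited scale), fetuin *Ahsg* (0.31 ± 0.22), hemopexin *Hpx* (0.31 ± 0.29) and the vitamin D carrier *Gc* (0.02 ± 0.18) were not called on both scales, with adjusted p from 0.299 to 0.94, although *Ahsg* and *Hpx* were called higher on the deposited scale alone (0.68 and 0.67, adjusted p = 0.023 and 0.0348). *Apoa2*, of high-density lipoprotein, was at 10312 to 11244 against 4843 to 6367 FPKM (-1.31 ± 0.27, adjusted p = 0.015) and was not called without Ctrl 1, Ctrl 2, Ctrl 3 or LKO 2.

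The liver differences were set against those in iWAT, muscle and hypothalamus of the same genotypes by limma's F test over the 3 contrasts of tissue and genotype. The difference between LKO and Ctrl varied with the tissue for 5306 (33.5%) of 15849 genes on the deposited scale (3506 after scaling within each tissue), and for 1341 of the 1508 genes called in liver, which were partly chosen by the liver contrast that enters the test. *Mt2*, with 5.54 in liver on the deposited scale, had 0.34 in iWAT, 1.28 in muscle and 0.46 in hypothalamus (interaction adjusted p = 7.6e-07). *Cd63* had 4.33 in liver and -0.26, -0.04 and -0.26 elsewhere (3.8e-06), and *Anxa2* 3.29 in liver and -0.34, 0.19 and -0.19 elsewhere (1.1e-06). Of the 20 named falls, *Gm2083*, *Mup18*, *Mup3* and *Selenbp2* did not pass this test. The values of *Mup3* were -2.78 in liver, 0.22 in iWAT and -2.61 in muscle (interaction adjusted p = 0.0617). In limma fits of iWAT and muscle alone, *Mup3* did not differ between LKO and Ctrl (adjusted p = 0.666 and 0.654).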

How the data were processed

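RNA-seq libraries (unstranded TruSeq kit v2, 100-nt paired-end reads) of 3 Ctrl and 3 LKO livers were used, with those of the other tissues for the interaction test. The submitters' processing notes name FastQC 0.11.5, Trimmomatic 0.32, HISAT2 2.0.5, Bowtie2 2.2.6, STAR 2.5.2b, StringTie 1.3.3b and the mm10 build, without the role of each. The authors deposited FPKM per gene in a joined table, and per library a table of coverage (a signal not scaled for depth), FPKM and TPM; 99.66% to 99.69% of the genes of a liver library had the same FPKM in both. Symbols that had turned into dates (27 in the joined table) were replaced by RefSeq names, and 24462 of 24532 identifiers were found in RefSeq. Read counts were not used here, so the counting error of single genes is unknown, and precision rests on 3 libraries per group (4.7 to 8.09 gigabases per liver library).

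Genes at 1 FPKM or more in at least 3 of the 6 liver libraries were fitted with limma 3.58.1 (lmFit, eBayes with trend) in R 4.3.3 on log2(FPKM + 1), and again after division by median-ratio size factors (0.8721 to 0.9019 in Ctrl and 0.9946, 1.151 and 1.283 in LKO 1 to 3). Adjusted p-values are Benjamini-Hochberg over all genes tested; the smallest exact permutation p for a single value, 3 against 3, is 0.1, so none is given. Interactions were tested on the deposited scale over all 24 libraries for genes at 1 FPKM or more in at least 3 of them, taken as independent because the labels do not tie tissues to mice. The fits were tested on simulated data. Tables and figures were made with Python 3.11.15, pandas 2.3.3, numpy 2.4.6 and matplotlib 3.10.9. Promoter windows were 250 bases before the RefSeq start, found for 8754 of the tested genes.

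Genes were named by rule: the 20 largest changes per direction among called genes without overlap, up to 4 called members of each list or, where fewer were called, its most abundant member, the 10 largest gains and losses of FPKM and the 10 most abundant genes of Ctrl, up to 12 genes each that went from under 0.5 FPKM in every library to 2 FPKM or more or the reverse, and the 5 smallest p-values per direction. Genes already described in earlier work on these livers, mostly of stress, fuel and serine pathways but also *Mup7*, *Hsd3b5*, *Cyp2b9* and *Cyp2b10*, were left out unless a list or a check of the labels needed them. Other genes are named as neighbours or as the few members of a count, after their values were seen. The *Map4k4* and mitotic gene descriptions were chosen after their values were seen. The members and lists were chosen with earlier results of these data known. Alternatives were pseudocount 0.1, no filter or a mean of at least 5 FPKM, deposited TPM, quantile normalization, either scale alone, fold limits, ordinary variances, a replicate block, all 24 libraries and leaving out each library over the same genes; leaving out each library with the filter set again was added after seeing the data.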

Additional observations from a re-analysis of the deposited data

Results flagged for a closer look

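For 5306 of 15849 genes the difference between LKO and Ctrl varied among the 4 tissues by limma's F test over tissue and genotype on the deposited scale (Benjamini-Hochberg adjusted p under 0.05), and for 3506 after median-ratio scaling within each tissue. All 20 genes named for the size of their rise in liver, *Ly6d*, *Mt2*, *Gsta1* and *Cdc20* among them, passed this test. Of the 20 named for the size of their fall 16 passed it. The liver contrast that chose these genes also enters the test. Groups of 3 libraries were not searched for single outlying libraries.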

How the results depend on the processing

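The count of 1508 called genes (1126 higher, 382 lower) moved most with the scale and the threshold. The deposited scale alone gave 3006 (2622 higher), and the lower genes were 766 on the median-ratio scale alone and 746 after quantile normalization. A fold change of at least 2 gave 607 (442 and 165), no fold limit 2612 (2013 and 599), ordinary variances 815 (625 and 190) and a mean of at least 5 FPKM 837, of which 545 were higher. Pseudocount 0.1, no filter, deposited TPM and all 24 libraries in 1 fit kept each count within 1.5 times. Over the same genes, leaving out 1 library gave 1043 to 2006 called genes, 791 to 1486 higher and 250 to 520 lower, with 252 and 250 lower without Ctrl 2 and Ctrl 3. With the filter set again, an alternative chosen after seeing the data, there were 793 called genes without LKO 2 (551 higher, 242 lower), 949 without LKO 3 (653 higher), and 247, 231 and 232 lower genes without Ctrl 1, Ctrl 2 and Ctrl 3; fewer genes enter these fits. Genes that varied with the tissue were 3506 after scaling within each tissue, and 3587 to 7205 when 1 liver library was left out. Counts of called list members, taken per direction, moved by more than 1.5 times for 46 at a fold change of at least 2 (56 did not). With ordinary variances 40 moved (62 did not), on the deposited scale alone 30 (72 did not) and after quantile normalization 28 (74 did not). Pseudocount 0.1 moved 6 (96 did not). Except where stated, the cause was not tested.

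Of 146 called genes among the 157 of the named genes that the text gives, 94 were called in every setting in which they were tested and 115 in all 6 fits that leave out 1 library. Changes of sign on the log2 scale were limited to genes that were not called. On the deposited scale *Alb* was at 0.05, *Cfd* at 0.15 and *Trf* at 0.27, and after quantile normalization *Cd79b* was at -0.04 and *Trf* at 0.87. Leaving out 1 library gave -0.34 to 0.07 for *Cfd* (0.02 without Ctrl 3), -0.01 to 0.10 for *Eef1a1*, -0.03 to 0.09 for *Gc* (-0.01 without Ctrl 3) and -0.26 to 0.09 for *Trf*.

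The replicate numbers did not pair the livers: deviations of same-numbered Ctrl and LKO libraries correlated at 0.156, 0.0291 and 0.0368 over genes, and Ctrl 3 correlated more with LKO 2 (0.271). With the replicate block 1482 genes were called (1104 higher, 378 lower), and 5001 varied with the tissue. Read counts were not used here, so changes of genes near 1 FPKM rest on the spread of 3 libraries alone.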

Other observations

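Among tested genes by annotated type, 20 of 186 long non-coding RNA genes were lower and 18 higher, against 345 lower and 1100 higher of 10588 protein-coding genes. Of 57 microRNA genes, whose FPKM stem from a kit that does not select small RNA, 5 were lower and 1 higher, and of 61 transcribed pseudogenes 8 were lower and 3 higher. Abundant transcripts that gained FPKM on the deposited scale without a call on both scales included *Sepp1*, which carries selenium in plasma (2097, 2433 and 2178 against 2675, 3317 and 3839 FPKM; adjusted p = 0.459), and *Gstm1*, a glutathione transferase of the mu class (1344, 1106 and 1008 against 1571, 2696 and 3110 FPKM; called on the deposited scale alone, 1.04 with adjusted p = 0.0215, and not after scaling, adjusted p = 0.0568). *Eef1a1*, the main elongation factor of translation, stood at 2296 to 2424 and 2511 to 3755 FPKM (0.04 ± 0.17, adjusted p = 0.872).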
